A study of Mus musculus with 12 samples.

Results

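The genes described here encode 10 secreted factors that activated B cells can make: *Il6*, *Il10*, *Tnf*, *Lta*, *Ltb*, *Ccl3*, *Ccl4*, *Vegfa*, *Tgfb1* and *Ebi3*. They were chosen by name, with earlier results of these data known, and all 10 were found by their Ensembl identifiers among the 55536 genes of the deposited counts. RNA was sequenced from splenic B cell cultures of 3 control mice (Cre/+) and 3 Pdap1-deficient mice (Pdap1 F/F Cre/+), all on the C57BL/6 background, of either sex and between 7 and 27 weeks of age per the study's methods. Both genotypes carry a Cre that acts from early B cell stages. In Pdap1-deficient mice it removes the loxP-flanked *Pdap1* exon 2, so that cells of other lineages keep the gene. Stimulation lasted 48 h. The LPS-IL-4 cultures, in which B cells switch to IgG1, received 5 µg/ml of LPS together with 5 ng/ml of IL-4. The LPS-BAFF-TGFβ cultures, in which they switch to IgG2b, received the same dose of LPS, 10 ng/ml of BAFF and 2 ng/ml of TGFβ. The 12 libraries therefore form 4 groups of 3 mice, and each mouse gave a culture of each stimulation.

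B cells act on other cells through secreted factors as well as through antibodies. IL-6, IL-10 and the IL-27 and IL-35 subunit encoded by *Ebi3* tune inflammation and T cell help, TNF and the lymphotoxins (LTα and LTβ, from *Lta* and *Ltb*) organize lymphoid tissue, and TGFβ1 restrains lymphocytes and directs class switching. CCL3 and CCL4 attract monocytes and T cells, and VEGF-A drives the growth of blood vessels. Monocytes, macrophages and neutrophils make several of these factors in large amounts after LPS, so each gene was set beside *Lyz2*, which encodes the lysozyme of these myeloid cells and is not a B cell gene.

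Expression is given as CPM, the reads of a gene scaled to the size of its library. Libraries held between 4579793 and 12636591 counts, apart from Pdap1-deficient LPS-IL-4 mouse 2 (15869143) and control LPS-BAFF-TGFβ mouse 1 (69500640). In Pdap1-deficient LPS-BAFF-TGFβ mouse 1 a single gene took 9.9% of the counts (TMM scaling factor 0.904). The top gene took at most 3.38% in any other library. That share was in control LPS-BAFF-TGFβ mouse 1, called the deep library below. After scaling for size it still differed from mice 2 and 3 of its group in some genes. *Ltb* was at 129 against 44.8 and 48.2 CPM, while *Tnf* was at 20.8 against 20.9 and 21.3 CPM. The cause was not tested. The targeted gene *Pdap1* was at 94.0 ± 3.33 CPM (SD, n = 3) in control and 26.8 ± 3.31 CPM in Pdap1-deficient LPS-IL-4 cultures, and at 126 ± 63.4 against 25.1 ± 1.89 CPM with LPS-BAFF-TGFβ. The groups did not overlap in either stimulation, although with LPS-BAFF-TGFβ the difference missed the threshold (adjusted p = 0.0929, by the quasi-likelihood test of edgeR after Benjamini-Hochberg adjustment). The wide control spread there came from mouse 1, at 199 CPM against 80.3 and 100 CPM in mice 2 and 3. *Pdap1* shares 931 exonic bp with *Arpc1b* on the other strand, and the part of its reads that came from these bases was not determined. The summed level of 7 B cell markers was between 2411 and 3651 CPM in all 12 libraries. The 22 myeloid markers summed to between 11.3 and 37.7 CPM in control libraries. In Pdap1-deficient libraries they summed to 14.9, 404 and 50.9 CPM with LPS-IL-4 (mice 1, 2 and 3) and to 21.6, 647 and 95.4 CPM with LPS-BAFF-TGFβ. Both cultures of Pdap1-deficient mouse 2 thus stood apart, and those of mouse 3 did so to a smaller extent. In mouse 2 the level of *Csf1r*, *Itgam*, *Cd14*, *S100a8*, *S100a9*, *Csf3r* and *Marco* was above that of every other library in either stimulation, whereas *C1qa*, *Elane* and *Ly6g* were at or near 0 throughout. By genotype edgeR called 0 of 7 tested myeloid markers in either stimulation (1 and 0 at an unadjusted p under 0.05, DESeq2 1 and 0), with median log2 fold changes of 2.52 and 1.57. These medians cover only markers past the filter on counts, which a gene can pass through the group where it is high. They were not computed without mouse 2. *Lyz2* itself was at 4.37 ± 2.19 (adjusted p = 0.318, edgeR) and 4.71 ± 1.99 (adjusted p = 0.509, edgeR). Summed T cell markers were between 9.80 and 41.7 CPM and NK cell markers at most at 4.20 CPM. Both maxima were in the LPS-IL-4 culture of Pdap1-deficient mouse 2, against at most 25 and 2.89 CPM in control LPS-IL-4 cultures. The 5 basophil and mast cell markers were also highest there, at 4.99 CPM against at most 0.36 CPM in these controls. The part of such cells in any result was not tested. The 6 dendritic cell markers were at 125 to 144 CPM in control and 75.6 to 111 CPM in Pdap1-deficient LPS-BAFF-TGFβ cultures. Most of these sums was *Flt3*, at 113, 130 and 130 CPM against 62.6, 96.4 and 93.7 CPM. *Zbtb46* was at 7.44, 7.06 and 8.52 CPM against 7.58, 11.4 and 9.96 CPM and was not lower. The other dendritic cell markers were at most at 3.41 CPM there. The 7 erythroid and platelet markers summed to 8.27 to 11.4 CPM in control and 9.73 to 23.7 CPM in Pdap1-deficient LPS-IL-4 cultures, and to 9.82 to 10.6 against 11.3 to 21.9 CPM with LPS-BAFF-TGFβ. They were lowest in mouse 1 among the Pdap1-deficient mice, and their part in any result was not tested. Several results on the 10 genes are also given without mouse 2. In such bulk cultures, fewer cells of a type and less RNA per cell cannot be told apart.

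The promoters of *Il6* and *Vegfa* are shown because these were the genes called between the genotypes. *Il6* lies at chr5:30013114-30019981 on the plus strand and *Vegfa* at chr17:46016993-46032369 on the minus strand of GRCm38 (GENCODE gene models). The 250 bases before the start were taken from RefSeq on GRCm38, chr5:30012864-30013113 (plus strand) for *Il6* and chr17:46032378-46032627 (minus strand) for *Vegfa*, whose other RefSeq start is not shown. Capitals in *Il6* mark a match to the AP-1 element TGANTCA at -249 and a match to the κB consensus at -44, and capitals in *Vegfa* mark a κB match at -118, counted from the start to the first base of the match.
Il6: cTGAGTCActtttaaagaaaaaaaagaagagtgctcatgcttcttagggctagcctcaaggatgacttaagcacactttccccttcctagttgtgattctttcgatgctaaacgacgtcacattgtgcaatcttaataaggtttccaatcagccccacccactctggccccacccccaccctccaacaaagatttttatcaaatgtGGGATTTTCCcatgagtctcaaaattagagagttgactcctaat
Vegfa: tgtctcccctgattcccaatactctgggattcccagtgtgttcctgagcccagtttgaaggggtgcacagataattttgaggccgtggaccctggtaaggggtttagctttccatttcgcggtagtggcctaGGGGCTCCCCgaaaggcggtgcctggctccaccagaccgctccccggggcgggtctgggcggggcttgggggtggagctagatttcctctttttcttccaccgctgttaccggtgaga
Of the 10 genes, 8 have a promoter in the RefSeq table. Both strands from 250 bases before to 50 bases after the start were searched, as in all 32851 promoters of the table. κB matches were found for *Il6*, *Ltb*, *Vegfa*, *Tgfb1* and *Ebi3*, and in 8.46% of all promoters. The AP-1 element was found for *Il6* alone among them, against 7.81% of all promoters. The hypoxia response core ACGTG occurred in the second *Vegfa* promoter and in 19.6% of all promoters, and the C/EBP-ATF element TGATGNAA in none of the 8 genes and in 3.97% of all promoters. A match describes letters in this window and not binding.

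Levels of different genes were compared per kb of exon (RPKM scale). In control LPS-IL-4 cultures *Tnf* was the highest of the 10 genes, at 28.2 ± 1.13 RPKM (SD, n = 3), followed by *Ebi3* at 13.6 ± 0.749 RPKM. *Ltb* (10 ± 0.782 RPKM) and *Tgfb1* (9.12 ± 1.12 RPKM) came next and overlapped each other. *Lta* (6.60 ± 0.479 RPKM) lay below them, and *Il6* (5.30 ± 0.549 RPKM), *Il10* (5.27 ± 0.909 RPKM) and *Ccl3* (4.20 ± 3.22 RPKM) could not be ordered. *Vegfa* (1.66 ± 0.0428 RPKM) and *Ccl4* (0.615 ± 0.734 RPKM) were lowest, and *Ccl3* overlapped *Vegfa*. Control LPS-BAFF-TGFβ cultures had another order, with *Ltb* first at 48.8 ± 31.5 RPKM, *Tgfb1* (14.0 ± 2.88 RPKM) and *Tnf* (12.8 ± 0.169 RPKM) next and overlapping, and *Vegfa* last at 0.100 ± 0.0890 RPKM. In Pdap1-deficient LPS-IL-4 cultures *Ccl3* had the highest mean, at 50 ± 69.7 RPKM, but ranged from 1.02 to 130 RPKM. *Tnf* (30.5 ± 6.21 RPKM) and *Il6* (27.4 ± 7.05 RPKM) followed and overlapped, *Vegfa* stood below *Il6* without overlap at 12.6 ± 4.06 RPKM, and *Lta* was last at 4.51 ± 1.18 RPKM. In Pdap1-deficient LPS-BAFF-TGFβ cultures *Ccl3* again had the highest mean (46.5 ± 63.4 RPKM, from 0.421 to 119 RPKM). *Ltb* (39 ± 2.96 RPKM) was above *Tnf* (17.1 ± 7.97 RPKM) without overlap, and all further neighbours in the order, from *Tnf* down to *Lta* (2.62 ± 0.221 RPKM), overlapped.

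**Figure D1:**
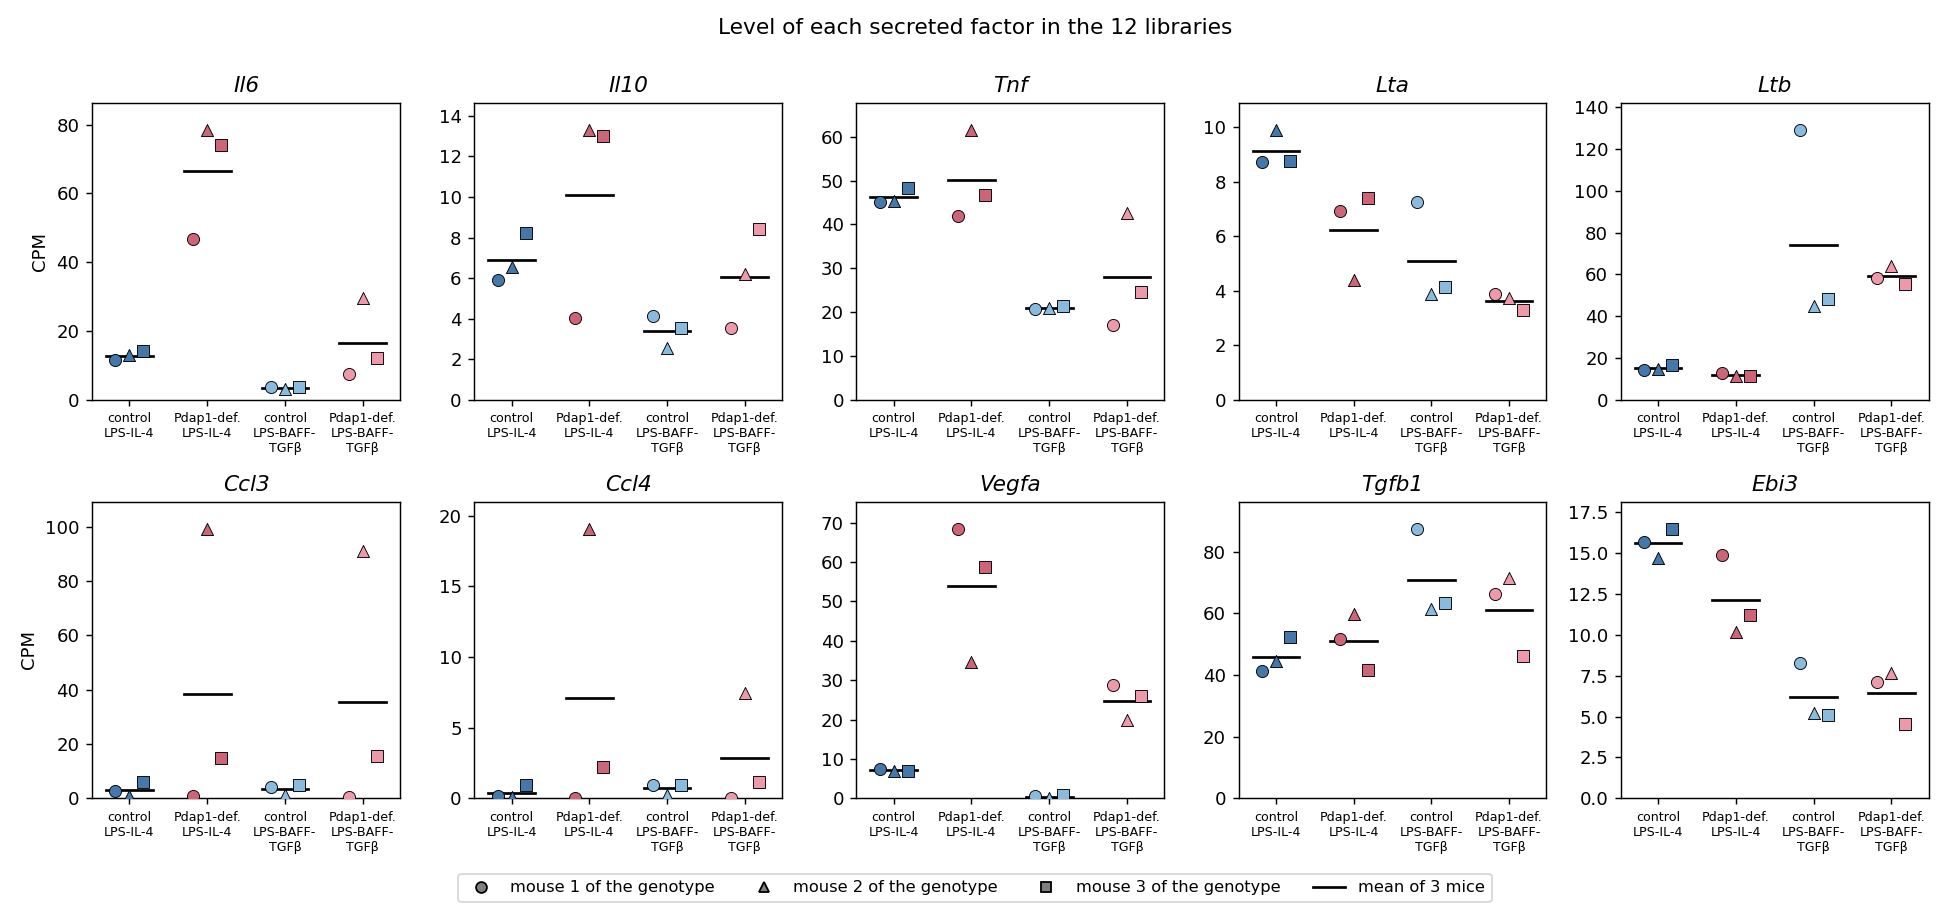
CPM of each gene (linear axis from 0, a scale of its own for each gene) in the 12 libraries, by group. Symbols give the mouse number within a genotype and bars the mean of 3 mice. All 3 Pdap1-deficient libraries lie above all 3 control libraries for *Il6* and *Vegfa* in both stimulations, whereas *Ccl3* and *Ccl4* are highest in Pdap1-deficient mice 2 and 3 and lowest in mouse 1.

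To ask which of the factors depend on Pdap1, genotypes were compared within each stimulation. In Pdap1-deficient cultures 2 of the 10 genes were called higher with LPS-IL-4, *Il6* and *Vegfa*, and 1 of 9 tested genes with LPS-BAFF-TGFβ, *Vegfa*. None was called lower. Over all genes tested, the same threshold (adjusted p under 0.05) was passed by 4.92% in the LPS-IL-4 and 0.462% in the LPS-BAFF-TGFβ cultures. The median log2 fold change of the tested genes among the 10 was 0.34 and 0.42, beside 0.02 and 0.01 over all genes. Since the 10 genes were chosen with earlier results of these data known, these counts and medians describe them and test no set.

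*Vegfa* was the gene with the largest called difference in each stimulation. With LPS-IL-4 it was at 7.33, 7.01 and 7.01 CPM in control mice 1, 2 and 3 and at 68.5, 34.7 and 58.8 CPM in Pdap1-deficient mice 1, 2 and 3. The lowest Pdap1-deficient library was well above the highest control. The mean was 7.58-fold higher, with a log2 fold change of 2.91 ± 0.26 (SE, adjusted p = 0.00136, edgeR's quasi-likelihood test). In the LPS-BAFF-TGFβ cultures the control libraries were at 0.556, 0 and 0.731 CPM, from 35, 0 and 6 reads, and the Pdap1-deficient libraries at 28.7, 19.8 and 25.9 CPM, from 178, 96 and 221 reads. Here the transcript was close to absent in controls, and the library with 0 reads allows up to 0.365 CPM (3 reads, counting error only). The log2 fold change was 5.68 ± 0.50 (adjusted p = 0.00326, edgeR), with a ratio of means of 57.8 that rests on the few control reads. *Vegfa* remained above the threshold when each library was left out in turn, with log2 fold changes from 2.68 to 3.17 with LPS-IL-4 and from 5.36 to 6.03 with LPS-BAFF-TGFβ.

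*Vegfa* did not follow *Lyz2*. Its highest level in each stimulation was in Pdap1-deficient mouse 1, whose *Lyz2* level was 0.0778 CPM (1 read) with LPS-IL-4 and 0.645 CPM (4 reads) with LPS-BAFF-TGFβ, below every control library of the stimulation. Its lowest Pdap1-deficient level in each stimulation was in mouse 2, which had the most *Lyz2* (94.0 and 278 CPM). In mouse 1 *Vegfa* was 9.62 times and 66.9 times the control mean. With the *Lyz2* level as a covariate, it was at 3.09 ± 0.15 on the log2 scale with LPS-IL-4 (adjusted p = 9.23e-10, edgeR) and 5.75 ± 0.55 with LPS-BAFF-TGFβ (adjusted p = 0.0162, edgeR).

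*Il6*, the cytokine that supports plasma cells and T follicular help, was at 11.5, 12.9 and 14.2 CPM in control LPS-IL-4 cultures and at 46.8, 78.4 and 74.1 CPM in Pdap1-deficient ones. Again no libraries overlapped, the mean was 5.17-fold higher, and the log2 fold change was 2.36 ± 0.19 (adjusted p = 0.000225, edgeR's quasi-likelihood test). Mouse 1, with 1 read of *Lyz2*, had 602 reads of *Il6* and 3.64 times the control mean. With LPS-BAFF-TGFβ *Il6* was at 3.67, 3.04 and 3.77 CPM in control and at 7.58, 29.5 and 12.1 CPM in Pdap1-deficient cultures. All 3 Pdap1-deficient libraries exceeded all controls, but they differed among themselves, and the difference of 2.21 ± 0.49 on the log2 scale did not pass the threshold (adjusted p = 0.203, edgeR). The Wald test of DESeq2, which called 1.1% of all genes there, called it (adjusted p = 2.75e-05).

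In both stimulations the 3 Pdap1-deficient cultures had the same order for *Il6* and for *Lyz2*, lowest in mouse 1 and highest in mouse 2. *Lyz2* was at 0.0778, 94.0 and 9.62 CPM with LPS-IL-4 and at 0.645, 278 and 40.9 CPM with LPS-BAFF-TGFβ. In the latter, without mouse 2, *Il6* was at 1.48 on the log2 scale (adjusted p = 0.196, edgeR), and with control mouse 1 left out as well it was 1.54 ± 0.30 and was called (adjusted p = 0.0186, edgeR). With *Lyz2* as a covariate the value was 1.47 ± 0.28 (adjusted p = 0.135, edgeR). With LPS-IL-4 it was 2.15 ± 0.13 with the covariate (adjusted p = 1.22e-08, edgeR) and 2.23 without mouse 2 (adjusted p = 0.000166, edgeR), so that the call remained in that stimulation.

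*Ccl3* and *Ccl4*, chemokine genes 13228 bp apart on chromosome 11 (chr11:83647844-83649355, minus strand, and chr11:83662584-83664683, plus strand, in GRCm38), followed *Lyz2* instead. *Ccl3* was at 2.80, 0.989 and 5.87 CPM in control and at 0.778, 99.4 and 14.7 CPM in Pdap1-deficient LPS-IL-4 cultures, where *Lyz2* was at 1.24, 0.360 and 3.33 CPM and at 0.0778, 94.0 and 9.62 CPM. With LPS-BAFF-TGFβ *Ccl3* was at 4.29, 1.09 and 4.75 CPM and at 0.323, 91.1 and 15.5 CPM, beside *Lyz2* at 4.82, 1.34 and 5.60 CPM and at 0.645, 278 and 40.9 CPM. Within each group the order of the 3 libraries was the same for both genes, and Pdap1-deficient mouse 1 was below every control for both.

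*Ccl4* was at 0.165, 0.0899 and 0.964 CPM in control and at 0, 19.1 and 2.22 CPM in Pdap1-deficient LPS-IL-4 cultures. With LPS-BAFF-TGFβ it was at 0.954, 0.243 and 0.974 CPM and at 0, 7.43 and 1.17 CPM. Neither culture of Pdap1-deficient mouse 1 gave a *Ccl4* read, which allows up to 0.233 CPM with LPS-IL-4 and 0.484 CPM with LPS-BAFF-TGFβ. Differences between genotypes were large on the log2 scale but no larger than the spread between mice. For *Ccl3* they were 3.55 ± 1.82 (adjusted p = 0.330, edgeR) and 3.34 ± 1.73 (adjusted p = 0.545, edgeR), and for *Ccl4* 4.11 ± 2.11 with LPS-IL-4 (adjusted p = 0.328, edgeR). *Ccl4* was too low to be tested between genotypes in the LPS-BAFF-TGFβ cultures. Leaving out Pdap1-deficient mouse 2 brought the LPS-IL-4 values to 1.20 for *Ccl3* and 1.30 for *Ccl4*, and with *Lyz2* as a covariate they were 0.17 ± 0.24 and -0.24 ± 0.60. Whether myeloid cells account for these reads was not tested.

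Over the 12 libraries, the Pearson correlation of log2 CPM with *Lyz2* was 0.949 for *Ccl3* and 0.927 for *Ccl4*. It was 0.526 for *Il10*, 0.311 for *Il6*, 0.241 for *Tgfb1*, 0.230 for *Ltb*, 0.207 for *Tnf* and 0.166 for *Vegfa*, and it was negative for *Lta* (-0.515) and *Ebi3* (-0.378). These values describe libraries that share mice and stimulations, with the cultures of Pdap1-deficient mouse 2 at the high end and of mouse 1 at the low end of *Lyz2*.

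**Figure D2:**
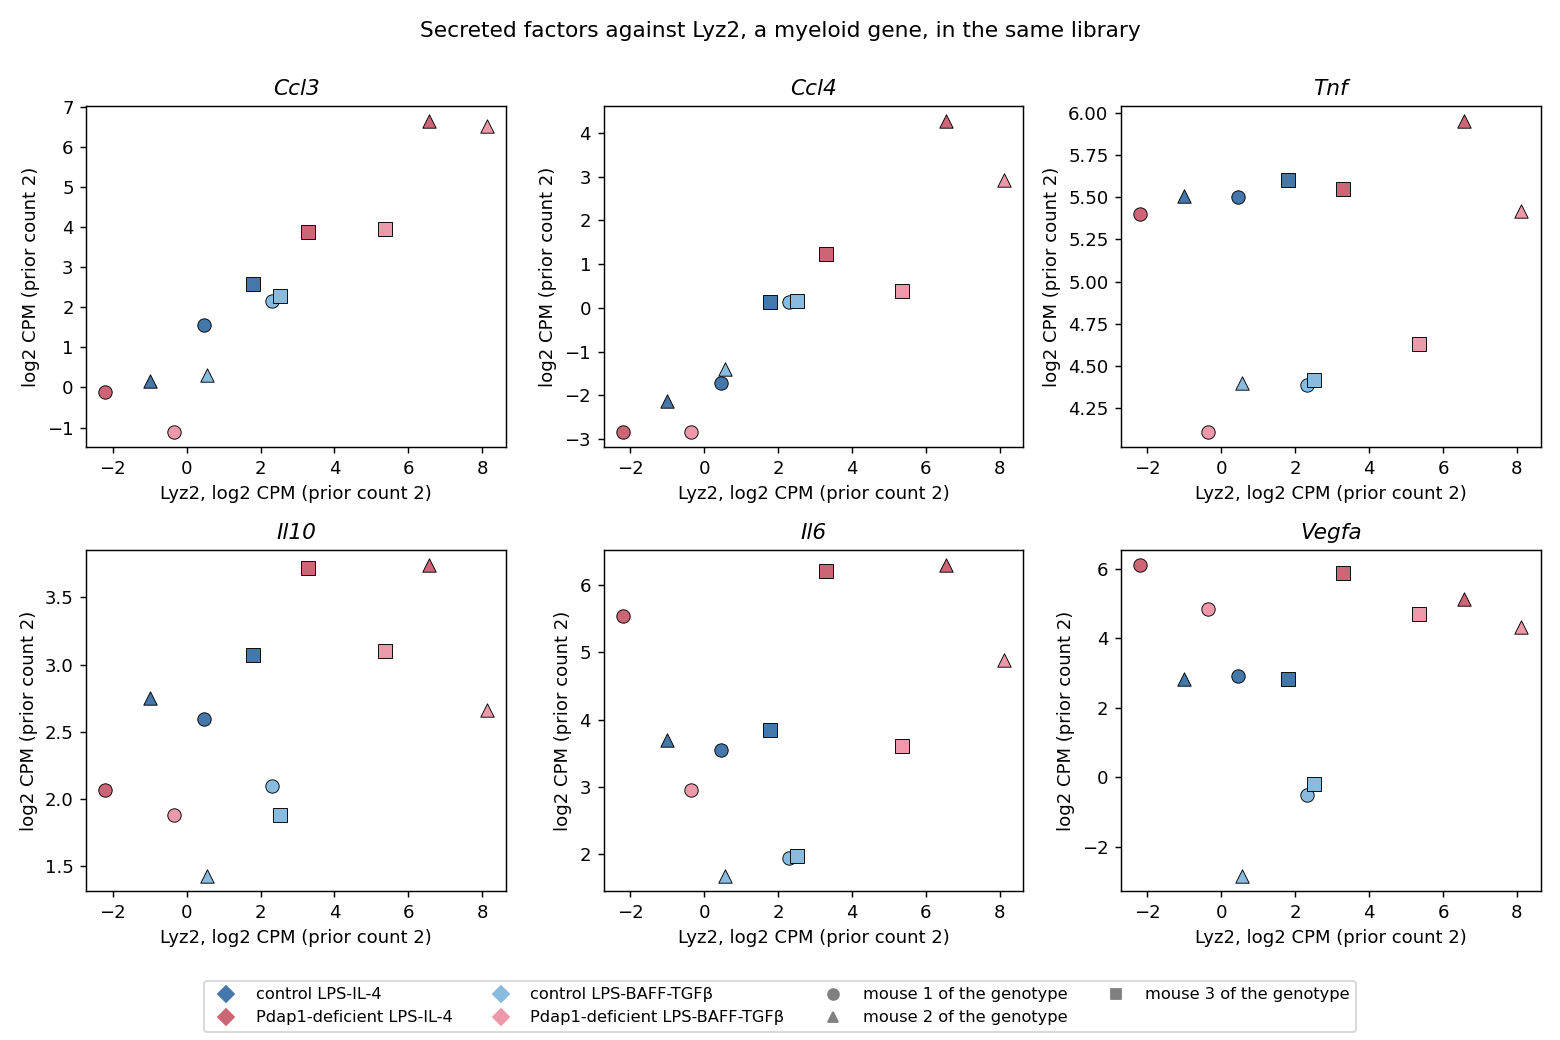
Log2 CPM (prior count 2) of 6 factors against that of *Lyz2* in the same library. Colours give the 4 groups and symbols the mouse number. *Ccl3* and *Ccl4* rise along the *Lyz2* axis across groups (r = 0.949 and 0.927), whereas *Vegfa* is high in all 6 Pdap1-deficient libraries at any *Lyz2* level.

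The cytokines *Il10* and *Tnf* were not called in either stimulation. *Il10* was at 5.93, 6.56 and 8.24 CPM in control and at 4.05, 13.3 and 13.0 CPM in Pdap1-deficient LPS-IL-4 cultures, a log2 fold change of 0.53 ± 0.41 (adjusted p = 0.467, edgeR). Mouse 1, with the least *Lyz2*, lay below all controls and the other two mice above them. Without mouse 1 the value was 0.90 and was called (adjusted p = 0.0236, edgeR), and with *Lyz2* as a covariate it was -0.01 ± 0.23. With LPS-BAFF-TGFβ *Il10* was at 4.15, 2.55 and 3.53 CPM and at 3.55, 6.19 and 8.44 CPM, a log2 fold change of 0.82 ± 0.35 (adjusted p = 0.456, edgeR). *Tnf* was at 45, 45.4 and 48.4 CPM against 42.0, 61.5 and 46.6 CPM with LPS-IL-4, and at 20.8, 20.9 and 21.3 CPM against 17.1, 42.5 and 24.6 CPM with LPS-BAFF-TGFβ. The control libraries were close together, and Pdap1-deficient mouse 2 was the highest and mouse 1 the lowest in each stimulation. Log2 fold changes were 0.10 ± 0.13 (adjusted p = 0.680, edgeR) and 0.42 ± 0.30 (adjusted p = 0.604, edgeR), and -0.06 and -0.02 without mouse 2.

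The lymphotoxin genes lie beside *Tnf* on chromosome 17, with gaps of 1157 bp (*Lta*) and 3060 bp (*Ltb*). *Lta*, whose product forms a secreted homotrimer, was at 8.73, 9.89 and 8.76 CPM in control and at 6.92, 4.38 and 7.40 CPM in Pdap1-deficient LPS-IL-4 cultures. It was at 7.26, 3.89 and 4.14 CPM against 3.87, 3.72 and 3.28 CPM with LPS-BAFF-TGFβ. The groups did not overlap in either stimulation, but the differences of -0.57 ± 0.22 (adjusted p = 0.157, edgeR) and -0.53 ± 0.31 (adjusted p = 0.545, edgeR) on the log2 scale missed the threshold. With LPS-BAFF-TGFβ the nearest libraries of the genotypes were at 3.89 and 3.87 CPM (32 and 24 reads), and without the deep control library the value was -0.15. *Ltb*, which anchors lymphotoxin at the cell surface, was at 14.2, 14.8 and 16.5 CPM against 12.8, 11.4 and 11.3 CPM with LPS-IL-4 and also did not overlap there, at -0.36 ± 0.14 (adjusted p = 0.157, edgeR). With LPS-BAFF-TGFβ it was at 129, 44.8 and 48.2 CPM against 58.1, 64.0 and 55.2 CPM. The deep control library alone was above the Pdap1-deficient range, and without it the log2 fold change turned from -0.33 to 0.34.

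*Tgfb1* was at 41.2, 44.5 and 52.2 CPM against 51.7, 59.9 and 41.5 CPM with LPS-IL-4 and at 87.5, 61.4 and 63.4 CPM against 66.3, 71.4 and 46.0 CPM with LPS-BAFF-TGFβ. The genotypes overlapped in both, with log2 fold changes of 0.14 ± 0.14 (adjusted p = 0.579, edgeR) and -0.21 ± 0.20 (adjusted p = 0.696, edgeR). *Ebi3* was at 15.7, 14.7 and 16.5 CPM against 14.9, 10.2 and 11.2 CPM with LPS-IL-4, a log2 fold change of -0.38 ± 0.17 (adjusted p = 0.211, edgeR). Without Pdap1-deficient mouse 1, the one inside the control range, it was -0.58 and was called (adjusted p = 0.0458, edgeR). With LPS-BAFF-TGFβ *Ebi3* was at 8.30, 5.23 and 5.11 CPM against 7.10, 7.64 and 4.57 CPM, with no difference in either direction (0.02 ± 0.29). *Ebi3* shares 270 exonic bp with the antisense gene *Gm16712*, and reads of the pair may have been counted together, since the strand setting of the counting is not given in the sources used here.

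Counted by overlap alone, 4 of the 10 genes separated the genotypes with LPS-IL-4 (*Il6* and *Vegfa* higher, *Lta* and *Ltb* lower) and 3 of 9 tested genes did so with LPS-BAFF-TGFβ (*Il6* and *Vegfa* higher, *Lta* lower). Over all tested genes the groups did not overlap for 31.7% and 18.6%. With control mouse 1 and Pdap1-deficient mouse 2 left out, 2 genes were called in each stimulation, *Il6* and *Vegfa* in both, against 5.38% and 1.1% of all genes.

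**Figure D3:**
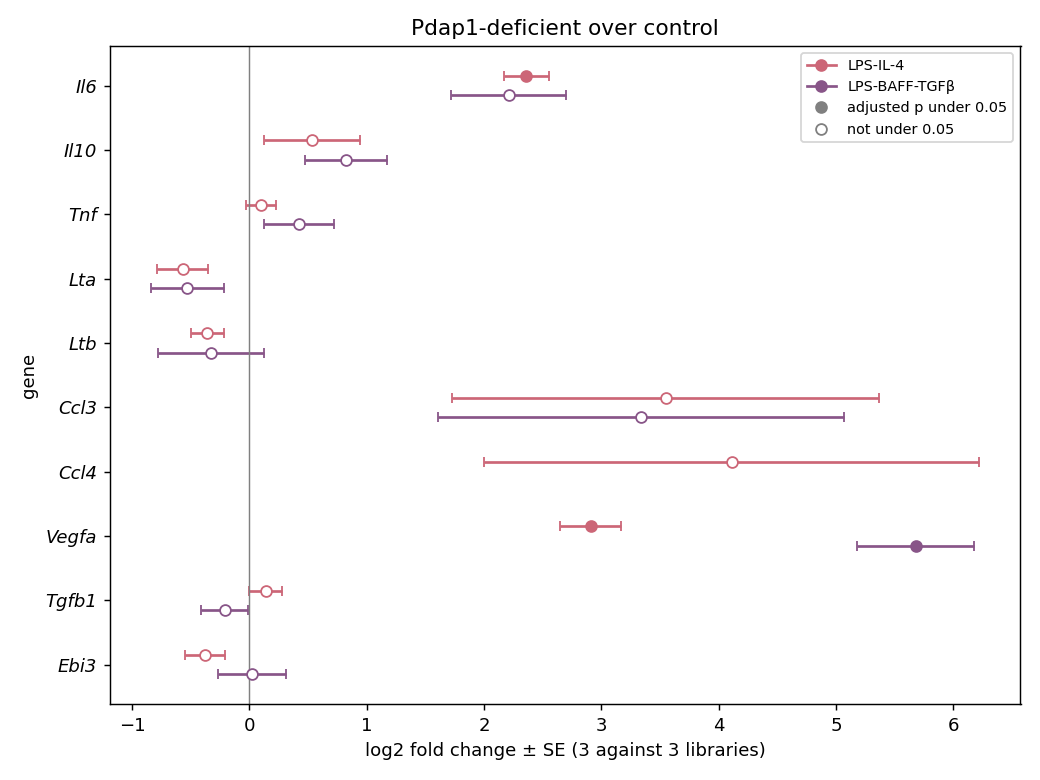
Log2 fold change, Pdap1-deficient over control, of each gene in each stimulation, with its SE (3 against 3 libraries). Filled points have an adjusted p under 0.05, which holds for *Il6* (2.36) and *Vegfa* (2.91) with LPS-IL-4 and for *Vegfa* (5.68) with LPS-BAFF-TGFβ. *Ccl4* was not tested with LPS-BAFF-TGFβ.

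Whether the genotype difference itself changed with the stimulation was tested over the 12 libraries. No gene of the 10 was called by edgeR, 1 (*Vegfa*) had an unadjusted p under 0.05, and DESeq2 called 1 (*Vegfa*). Over all genes edgeR called 0 of 15794 (0%), with 755 at an unadjusted p under 0.05, and DESeq2 called 6 (0.019%). The difference of *Vegfa* between genotypes was larger with LPS-BAFF-TGFβ by 2.72 ± 0.53 on the log2 scale (adjusted p = 0.605, edgeR; adjusted p = 9.48e-05, DESeq2), in the stimulation where the control level was near 0. With the mouse as a block the value was 2.80 ± 0.43 (adjusted p = 0.202, edgeR), again with no gene called (0%). For *Il6* it was -0.18 ± 0.58 (adjusted p = 0.999, edgeR).

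The stimulations were then compared within each genotype. *Lyz2* was higher with LPS-BAFF-TGFβ in 3 of 3 mice of each genotype, but was not called. Its log2 fold change was 1.29 ± 0.76 in control (adjusted p = 0.306, edgeR) and 1.59 ± 2.32 in Pdap1-deficient mice (adjusted p = 0.771, edgeR). Of 8 tested myeloid markers 1 was called in control mice, *Adgre1* (1.43 ± 0.20, adjusted p = 0.0015, edgeR). The part of myeloid cells in the differences between stimulations was not tested. In control mice 7 of 9 tested genes differed between the cultures: *Il6*, *Il10*, *Tnf*, *Vegfa* and *Ebi3* were lower in the LPS-BAFF-TGFβ culture, and *Ltb* and *Tgfb1* were higher. Over all genes tested, 19.3% were called. *Vegfa* fell by 3.87 ± 0.48 on the log2 scale (adjusted p = 0.000874, edgeR), *Il6* fell by 1.87 ± 0.17 (adjusted p = 0.000188, edgeR), and *Tnf* fell by 1.14 ± 0.10 (adjusted p = 0.000116, edgeR). *Ebi3* fell by 1.29 ± 0.21 (adjusted p = 0.00355, edgeR) and *Il10* fell by 0.98 ± 0.24 (adjusted p = 0.0232, edgeR). All 5 were lower in 3 of 3 mice, with no overlap between the cultures. *Lta* was also lower in 3 of 3 mice, at -0.78 ± 0.25 (adjusted p = 0.0684, edgeR).

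*Ltb* rose by 2.30 ± 0.47 (adjusted p = 0.0234, edgeR) and *Tgfb1* by 0.63 ± 0.16 (adjusted p = 0.0247, edgeR), each in 3 of 3 control mice. Much of the *Ltb* value came from the deep LPS-BAFF-TGFβ library, without which it rose by 1.63. The calls of *Ltb*, *Tgfb1* and *Il10* each depended on single libraries. That of *Ltb* was lost without any one of the 3 control LPS-IL-4 libraries (adjusted p from 0.0873 to 0.0988, edgeR), that of *Tgfb1* without mouse 1 or 2 of them (0.121 and 0.104), and that of *Il10* without any one of them or LPS-BAFF-TGFβ mouse 3 (0.0522 to 0.0979). *Lta* was called without the deep library, at -1.17 (adjusted p = 0.000355, edgeR). *Ccl3* did not differ in a common direction (0.11 ± 0.69), and *Ccl4* was not tested. As the 2 cultures came from the same mouse, a fit with the mouse as a block was made as well, which left 5 of the 9 genes called, against 13.4% of all genes: *Il10* (adjusted p = 0.0512) and *Tgfb1* (adjusted p = 0.0593) were no longer past the threshold of edgeR's test.

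In Pdap1-deficient mice 3 of the 10 genes were called without the mouse and 9 with the mouse as a block, against 11.5% and 26.4% of all genes. *Ltb* rose by 2.32 ± 0.13 (adjusted p = 9.29e-06, edgeR), from 12.8, 11.4 and 11.3 to 58.1, 64.0 and 55.2 CPM, with no overlap. *Vegfa* fell by 1.11 ± 0.26 (adjusted p = 0.0328, edgeR), and *Ebi3* fell by 0.92 ± 0.25 (adjusted p = 0.0407, edgeR). The call of *Vegfa* was lost without any 1 library but LPS-IL-4 mouse 2 (adjusted p from 0.0703 to 0.143, edgeR), and that of *Ebi3* without either culture of mouse 1 or 3 (0.102 to 0.152). *Vegfa* was lower with LPS-BAFF-TGFβ in both genotypes, but in Pdap1-deficient mice it stayed above the level of control LPS-IL-4 cultures.

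The other 6 genes were called in the fit with the mouse and not without it. There *Il6* was at -2.14 ± 0.33 (adjusted p = 0.0292, edgeR), *Tnf* at -0.89 ± 0.12 (adjusted p = 0.000102, edgeR) and *Il10* at -0.68 ± 0.21 (adjusted p = 0.0211, edgeR), each lower in 3 of 3 mice. *Lta* (-0.79 ± 0.26, adjusted p = 0.0332, edgeR), *Ccl4* (-1.24 ± 0.30, adjusted p = 0.00621, edgeR) and *Tgfb1* (0.26 ± 0.09, adjusted p = 0.0371, edgeR) were called as well. *Ccl4* rested on mice 2 and 3, since mouse 1 had no read in either culture. *Ccl3* was the exception, at -0.08 ± 0.12. Without both cultures of mouse 2, 6 genes were called with and without the block (*Il6*, *Tnf*, *Lta*, *Ltb*, *Vegfa* and *Ebi3*), against 25.1% and 16.5% of all genes. In the block fit without mouse 2, *Ccl4* was at -0.90 (adjusted p = 0.417, edgeR), *Il10* at -0.47 (adjusted p = 0.178, edgeR) and *Tgfb1* at 0.26 (adjusted p = 0.0854, edgeR), so that these calls were lost. In the comparison with all libraries and no block, DESeq2 called 5 of the 10 genes and 9.48% of all genes.

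**Figure D4:**
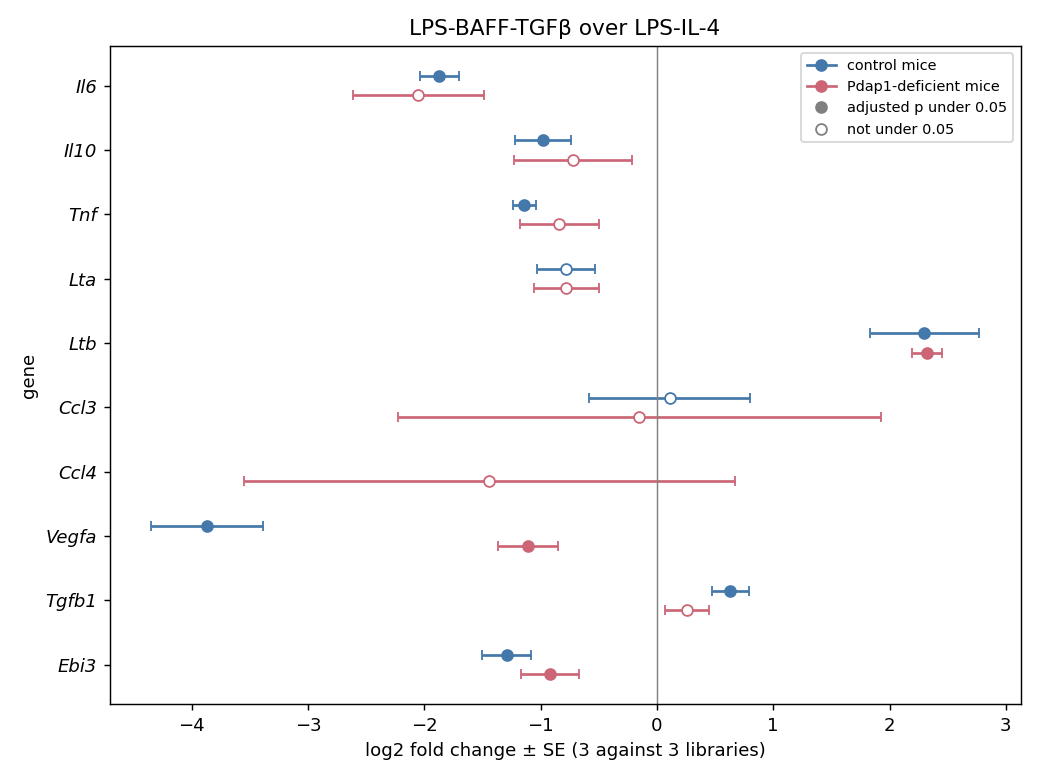
Log2 fold change, LPS-BAFF-TGFβ over LPS-IL-4, of each gene in control and in Pdap1-deficient mice, with its SE (3 against 3 libraries, without the mouse as a block). Filled points have an adjusted p under 0.05. *Ltb* lies at 2.30 and 2.32 and *Vegfa* at -3.87 and -1.11, and *Ccl3* and *Ccl4* have wide errors in Pdap1-deficient mice.

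The receptors of the 10 factors were followed as a list of 18 genes. Of 13 tested with LPS-IL-4, 2 were higher in Pdap1-deficient cultures and none lower, against 4.92% of all genes called. The median log2 fold change of the 13 was 0.38, beside 0.02 over all genes. It was not computed without Pdap1-deficient mouse 2, and a gene can pass the filter on counts through the group where it is high. Summed over the 18 receptors, levels were 411 to 438 CPM in control cultures. In Pdap1-deficient ones they were 458, 478 and 715 CPM, from lowest to highest. *Il10rb*, a shared chain of the IL-10 receptor, rose by 0.71 ± 0.16 (adjusted p = 0.0330, edgeR), from 9.14, 10.3 and 10.6 to 13.8, 17.2 and 18.7 CPM. It was above all controls in mouse 1 also. Among 12 receptors tested with LPS-BAFF-TGFβ, 0 were called by edgeR or DESeq2, and edgeR gave 2 an unadjusted p under 0.05. There edgeR called 0.462% of all genes. *Tnfrsf1b*, which encodes TNF receptor 2, was at 178 and 121 CPM in the cultures of Pdap1-deficient mouse 2 and at most at 66.1 CPM elsewhere, as the myeloid markers were.

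Between the stimulations 5 of 12 tested receptors were higher and 4 lower with LPS-BAFF-TGFβ in control mice, and 3 and 3 of 13 in Pdap1-deficient mice. The shares called over all genes were 19.3% and 11.5%. *Tgfbr1* and *Tgfbr2*, the signalling receptors of TGFβ, rose by 1.12 ± 0.14 (adjusted p = 0.000839, edgeR) and 1.34 ± 0.09 (adjusted p = 3.09e-05, edgeR) in control mice and by 1.12 ± 0.10 and 1.06 ± 0.13 in Pdap1-deficient mice (adjusted p = 9.31e-05 and 0.000789, edgeR). The 2 chains of the IL-6 receptor moved in opposite directions. In control mice *Il6ra*, the ligand-binding chain, rose by 2.03 ± 0.18 (adjusted p = 0.000158, edgeR), and *Il6st*, the shared signalling chain gp130, fell by 0.64 ± 0.13 (adjusted p = 0.00931, edgeR). *Nrp2*, a co-receptor of VEGF family ligands, fell by 2.68 ± 0.12 (adjusted p = 5.13e-06, edgeR), and *Tnfrsf1b* by 1.38 ± 0.12 (adjusted p = 0.000121, edgeR).

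Partners and processing proteins formed a list of 10 genes, of which 6 were tested. By genotype edgeR and DESeq2 called 0 of 6 in either stimulation, and none had an unadjusted p under 0.05. The shares that edgeR called over all genes were 4.92% and 0.462%. In control mice 3 were higher and 1 lower in the LPS-BAFF-TGFβ culture, against 19.3% of all genes called. *Il12a*, whose product pairs with that of *Ebi3* to form IL-35, rose by 2.65 ± 0.20 (adjusted p = 6.47e-05, edgeR), from 3.38, 5.67 and 4.99 to 27.1, 29.0 and 32.1 CPM, in the same libraries in which *Ebi3* was lower. *Furin*, which cleaves the TGFβ1 precursor, rose by 1.13 ± 0.18 (adjusted p = 0.00300, edgeR), and *Adam17*, which releases TNF from the membrane, by 0.46 ± 0.09 (adjusted p = 0.00744, edgeR). *Lrrc32*, which encodes the latent TGFβ docking protein GARP, fell by 0.69 ± 0.15 (adjusted p = 0.0155, edgeR). In Pdap1-deficient mice *Adam17* (0.55 ± 0.09, adjusted p = 0.00319, edgeR) and *Lrrc32* (-1.22 ± 0.23, adjusted p = 0.00695, edgeR) were called in the same directions, against 11.5% of all genes.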

How the data were processed

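RNA-seq of 12 libraries from splenic B cell cultures was analysed. Groups and mouse numbers came from the labels and the series description, and doses, time and ages from the study's methods. The labels name CH12 as cell line and a stranded mRNA kit, while the methods describe primary cells, depletion of ribosomal RNA and a total RNA kit. The methods were followed. The authors trimmed the reads with Trim Galore 0.6.1, aligned them with STAR 2.6 to GRCm38 and counted them with HTSeq 0.9.1 (versions from the submitters' processing notes), and deposited the read counts per gene without normalization. The second table, a signal that the authors deposited as the counts divided by 1 size factor per library, was not used in tests. Within each library, 1 table was the other times a constant, to within 9.8e-15.

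Each comparison was fitted over all genes with edgeR 4.0.16 (R 4.3.3): genes were filtered by filterByExpr, libraries scaled by TMM, and the robust quasi-likelihood test taken at a Benjamini-Hochberg adjusted p under 0.05. P-values measure the spread between 3 mice per group. Alternatives were DESeq2 1.42.0, its size factors in edgeR, other filters, 1 fit of all libraries, *Lyz2* as a covariate, a replicate block, a stricter threshold and each library left out. CPM use TMM-scaled totals. Gene models and exon lengths came from GENCODE M21, and promoters from RefSeq (GRCm38.p6). Within each group no library was a copy of another, and pairs across groups were not checked. The main fits and DESeq2 were run on simulated counts with known changes. The fits with the mouse as a block, with *Lyz2* as a covariate or with libraries left out were not simulated. Python 3.11.15 and matplotlib 3.10.9 drew the figures.

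Cultures of a mouse share its number by the series description, which gives the pairing. The deviations of the 2 cultures of a mouse from their group means correlated at 0.579, 0.622 and 0.293 in Pdap1-deficient mice and at -0.181, 0.341 and -0.0228 in control mice. The 10 genes and all lists were chosen with earlier results of these data known. Beside the 10 genes, the text names *Pdap1*, the myeloid markers, of each further list up to 4 called genes with the smallest adjusted p per direction and comparison, and the 5 genes most like *Il6* and *Vegfa*. *Tnfrsf1b* in mouse 2 was singled out after its values were seen. A gene of the receptor list that was counted is not reported here by name.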

Additional observations from a re-analysis of the deposited data

How the results depend on the processing

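*Il6* and *Vegfa* were called with LPS-IL-4 in each alternative. *Vegfa* was called with LPS-BAFF-TGFβ wherever it was tested, but the minimum of 10 counts removed it. With LPS-IL-4 the number of genes called was 2 to 4 with each library left out. With LPS-BAFF-TGFβ it was 2 by DESeq2, 2 without control mouse 1 and Pdap1-deficient mouse 2 (chosen after seeing the data), and 0 with at least 10 counts in every library. Between stimulations in control mice it was 4 at an adjusted p under 0.01, 5 with the mouse as a replicate block, and 4 to 8 with each library left out. In Pdap1-deficient mice it was 1 at an adjusted p under 0.01, 5 in 1 fit of all libraries, 5 by DESeq2, 9 with the replicate block, 6 without mouse 2 and 6 with the block as well, and 1 to 4 with each library left out. For the difference between stimulations by genotype it was 1 by DESeq2 and 0 with the block. Between genotypes the numbers of mice pair nothing, and the block gave 2 and 1 calls, as without it.

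Values that changed sign were all uncalled ones. With *Lyz2* as a covariate these were, with LPS-IL-4, *Il10* (-0.01), *Tnf* (-0.02) and *Ccl4* (-0.24), and with LPS-BAFF-TGFβ *Tnf* (-0.03) and *Ccl3* (-1.06). Without control mouse 1 and Pdap1-deficient mouse 2 they were *Tnf* (-0.09) and *Tgfb1* (-0.06) with LPS-IL-4, and *Tnf* (0.00) and *Ltb* (0.28) with LPS-BAFF-TGFβ. Between stimulations *Ccl3* turned to -0.22 without control mouse 1 and to 0.16 without Pdap1-deficient mouse 2, and in the genotype by stimulation term to 0.39. *Ebi3* with LPS-BAFF-TGFβ was at 0.00 in 1 fit of all libraries and at -0.05 without a filter. In the genotype by stimulation term *Lta* was at -0.02 with the minimum of 10 counts and -0.01 without a filter, and *Ltb* at -0.01 in both. With each library left out, values ranged from -0.06 to 0.20 for *Tnf* with LPS-IL-4. In the LPS-BAFF-TGFβ cultures they ranged from -0.02 to 0.68 for *Tnf*, -0.59 to 0.34 for *Ltb* and -0.15 to 0.30 for *Ebi3*. Between stimulations they ranged from -0.32 to 0.85 for *Ccl3* in control mice, and in Pdap1-deficient mice from -2.22 to 2.23 for *Ccl3* and -3.46 to 1.36 for *Ccl4*. In the genotype by stimulation term they ranged from -0.88 to 0.16 for *Il6*, -0.12 to 0.53 for *Il10*, -0.11 to 0.54 for *Tnf*, -0.20 to 0.40 for *Lta*, -0.24 to 0.69 for *Ltb*, -2.35 to 2.09 for *Ccl3* and -4.40 to 0.42 for *Ccl4*. The causes were not tested. Of all single-gene values under the alternatives, 589 kept their direction and side of the threshold, 28 became called, 22 lost their call and 54 changed sign. Depth limits *Vegfa*, *Ccl3* and *Ccl4* most, which had under 10 reads in some libraries.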

Other observations

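Secreted factors beyond the 10 genes were followed in 4 lists. With LPS-IL-4 the median log2 fold change by genotype was 0.96 over the chemokines tested and 0.86 over the interleukins and colony-stimulating factors. It was 0.00 over the TNF superfamily ligands and -0.28 over the growth factors, beside 0.02 over all genes. These medians rest on the few genes past the filter on counts, which a gene can pass through the group where it is high. They were not computed without Pdap1-deficient mouse 2. Summed chemokines were at 146 to 161 CPM in control LPS-IL-4 cultures. They were at 87.9, 135 and 383 CPM, from lowest to highest, in Pdap1-deficient ones, of which only the last was above the controls. With LPS-BAFF-TGFβ they were at 298 to 380 CPM and at 113, 145 and 414 CPM, again with only the highest above the controls. The interleukins and colony-stimulating factors summed with LPS-IL-4 to 96.8 to 116 CPM and to 116, 155 and 404 CPM. Of 29 further chemokine genes, 9 were tested with LPS-IL-4 and 1 was called. *Ccl22*, which attracts CCR4-bearing T cells, fell by 1.04 ± 0.10 (adjusted p = 0.000642, edgeR), from 118, 133 and 126 to 64.3, 61.4 and 58.9 CPM. With LPS-BAFF-TGFβ it was at 316, 264 and 328 CPM in control and at 79.8, 145 and 79.0 CPM in Pdap1-deficient cultures, where edgeR called 0 of 8 tested chemokines, 2 had an unadjusted p under 0.05 and DESeq2 called 1. In control mice *Ccl22* (1.27 ± 0.11, adjusted p = 0.000110, edgeR) and *Cx3cl1* (2.37 ± 0.31, adjusted p = 0.00115, edgeR) were higher with LPS-BAFF-TGFβ, and *Cx3cl1* was so in Pdap1-deficient mice too (2.22 ± 0.43, adjusted p = 0.00887, edgeR). Of 20 growth factor genes, 5 were tested with LPS-IL-4, and *Hbegf* (-1.64 ± 0.37, adjusted p = 0.0340, edgeR) and *Mif* (-0.63 ± 0.13, adjusted p = 0.0300, edgeR) were lower in Pdap1-deficient cultures. *Hbegf* was at most at 2.43 CPM and was also lower with LPS-BAFF-TGFβ in control mice (-2.02 ± 0.43, adjusted p = 0.0126, edgeR).

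Of 31 interleukin and colony-stimulating factor genes, 7 were tested with LPS-IL-4 and 1 was higher. *Osm*, a cytokine of the IL-6 family, was at 4.86, 3.87 and 4.64 CPM in control and at 6.54, 10.3 and 7.61 CPM in Pdap1-deficient cultures (0.86 ± 0.22, adjusted p = 0.0497, edgeR). With LPS-BAFF-TGFβ it was at 5.39, 3.53 and 4.26 CPM and at 10, 8.88 and 9.14 CPM and was not called. In control mice *Il16* was higher with LPS-BAFF-TGFβ (1.03 ± 0.09, adjusted p = 0.000123, edgeR) and *Csf1* lower (-1.50 ± 0.28, adjusted p = 0.00655, edgeR), and both kept these directions in Pdap1-deficient mice (0.54 ± 0.10, adjusted p = 0.00519, and -1.21 ± 0.33, adjusted p = 0.0461, edgeR). Of 14 further TNF superfamily ligands, edgeR and DESeq2 called 0 of 5 tested by genotype with LPS-IL-4, and none had an unadjusted p under 0.05. *Tnfsf11*, which encodes RANKL, was lower with LPS-BAFF-TGFβ in both genotypes (-1.72 ± 0.32, adjusted p = 0.00706, and -1.89 ± 0.48, adjusted p = 0.0336, edgeR), and *Tnfsf14* (LIGHT) was lower in control mice (-3.45 ± 0.59, adjusted p = 0.00460, edgeR).

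Among 10530 genes with a mean of at least 5 CPM, those whose log2 CPM over the 12 libraries was most like *Il6* were *Evi2a* (Pearson's r = 0.987), *Plxna1* (0.980), *Tnik* (0.978), *Zeb2* (0.973) and *Gm20696* (0.971). Those most like *Vegfa* were *Cth* (0.958), *Tnks1bp1* (0.953), *Slc7a1* (0.953), *Aars* (0.946) and *Glipr2* (0.946). *Cth*, which encodes the cysteine-forming enzyme cystathionine gamma-lyase, had mean levels of 11.2 and 73.3 CPM in control and Pdap1-deficient LPS-IL-4 cultures and of 2.65 and 44.4 CPM with LPS-BAFF-TGFβ. The libraries share mice, stimulations and depth differences, so these values are descriptions.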
